A study of Homo sapiens with 12 samples.

Results

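Ephrin ligands and Eph receptors were followed in the human renal carcinoma cell lines RCC4 and UMRC2, both without working VHL, the tumour suppressor that marks hypoxia-inducible factors for destruction. The group comprised the ligand genes EFNA1, EFNA3, EFNA4, EFNA5, EFNB1 and EFNB2 and the receptor genes EPHA2, EPHB2 and EPHB4, listed with results of these data known. A gene was represented by probe sets annotated to it alone, and by the one with the highest mean where there were several. Of the 9 genes, 8 had at least 1 such probe set, 13 probe sets in all, among 19775 genes with a named probe set. All 8 reached the array median on at least 2 arrays and were among the 14285 genes tested. EPHB2 was not analysed here.

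The series covered 12 Affymetrix U133 Plus 2.0 arrays, 1 for each combination of cell line, construct and treatment. Each line carried stably, under puromycin selection, a FoxO3(TA)-ERT2 fusion (FoxO3), a FoxO1(TA)-ERT2 fusion (FoxO1) or the modified estrogen receptor part alone (empty vector, EV). In the TA forms alanine stands at the 3 sites that AKT phosphorylates, and the ligand 4-hydroxytamoxifen (4OHT) activates the receptor part of a fusion. Cells received 100 nM 4OHT or ethanol vehicle for 12 h. The promoter of the constructs and whether a line is 1 clone are not given in the sources used here, and nothing says that cultures were repeated. The 12 groups, each with 1 array, were FoxO3, FoxO1 and EV cells with 4OHT and the same cells with vehicle, in RCC4 and in UMRC2. A response was the difference in log2 level between the 4OHT and the vehicle array of a line, and the 2 cell lines stood as replicates of a construct.

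Eph receptors are receptor tyrosine kinases that bind ephrins on neighbouring cells. Ephrin-A ligands are held in the membrane by a glycolipid anchor and mainly bind EphA receptors, whereas ephrin-B ligands cross the membrane and mainly bind EphB receptors. Signals run into both cells and govern repulsion, adhesion and tissue boundaries, and in epithelia EPHA2 and its ligand ephrin-A1 act at cell contacts.

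The RNA of the fusions was seen through ESR1, the gene of the receptor part. On the log2 intensity scale its probe set read 12.69 with 4OHT and 12.99 with vehicle in RCC4 FoxO3 cells and 8.98 and 9.22 in RCC4 FoxO1 cells, against 5.21 and 4.67 in RCC4 EV cells. In UMRC2 it read 12.82 and 13.55 with FoxO3 and 12.14 and 12.59 with FoxO1, against 6.56 and 5.51 with EV. The FoxO3 lines thus carried more of this transcript than the FoxO1 lines, above all in RCC4. The EV readings lay below the array median of 6.66, so the arrays did not show the receptor part in EV cells, which are described as carrying it. Why it was not seen was not tested. Of 6 renal carcinoma markers, the 4 with a probe set (PAX8, KRT8, KRT18 and VIM) reached the array median on 12 of 12 arrays. Of 6 markers of other cells, the endothelial cadherin gene CDH5 was at the floor on 12 arrays, the leukocyte gene PTPRC reached the median on 0 and the fibroblast gene PDGFRB on 1, while CD3E reached it on 9 and PECAM1 and ACTA2 on 12; the part of these transcripts in the results was not tested. Spike-in controls placed 5 RCC4 arrays at a higher scan level (geometric mean intensity 4212 to 4699) and the RCC4 FoxO3 array with 4OHT together with the 6 UMRC2 arrays at a lower one (2239 to 2515).

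Promoter sequence is shown for EFNA3, EFNA5 and EPHA2, the members whose 4OHT response was lower with FoxO3 than with EV. Each window is the 250 bases before the RefSeq start of the gene (GRCh38.p14), read on the gene's strand. They lie at chr1:155078587-155078836 on the plus strand for EFNA3, chr5:107670938-107671187 on the minus strand for EFNA5 and chr1:16156070-16156319 on the minus strand for EPHA2. Capitals mark GCGTG or its reverse complement CACGC, a core that hypoxia-inducible factors, which VHL loss stabilises, can bind.
EFNA3: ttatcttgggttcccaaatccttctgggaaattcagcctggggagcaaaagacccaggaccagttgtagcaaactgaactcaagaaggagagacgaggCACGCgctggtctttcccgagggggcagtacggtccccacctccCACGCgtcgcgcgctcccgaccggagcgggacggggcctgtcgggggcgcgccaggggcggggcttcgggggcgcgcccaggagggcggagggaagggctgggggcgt
EFNA5: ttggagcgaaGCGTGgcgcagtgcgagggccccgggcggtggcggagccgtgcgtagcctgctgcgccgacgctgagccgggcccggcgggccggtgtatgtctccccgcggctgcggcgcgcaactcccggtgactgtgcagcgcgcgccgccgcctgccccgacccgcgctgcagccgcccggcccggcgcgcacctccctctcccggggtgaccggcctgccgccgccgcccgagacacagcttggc
EPHA2: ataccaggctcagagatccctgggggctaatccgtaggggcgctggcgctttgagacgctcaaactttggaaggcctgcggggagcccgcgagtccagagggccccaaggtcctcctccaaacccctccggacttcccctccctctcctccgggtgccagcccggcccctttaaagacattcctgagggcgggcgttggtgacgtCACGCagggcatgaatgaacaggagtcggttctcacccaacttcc

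The FoxO core GTAAACA was in 0 of the 9 members' windows on either strand, against 3.0% of 27305 promoters of the same length. GCGTG was in 8 of 9, all but EFNA4, against 31.9% of promoters, and the related core ACGTG in 0 of 9, against 18.7%. The members' windows were rich in G and C, with a median of 72.8% against 58.0% over all promoters. In EFNA3 the marked cores began 152 and 108 bases before the start, in EPHA2 45 and in EFNA5 240. Such matches are descriptions of sequence, not of binding.

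**Figure D1:**
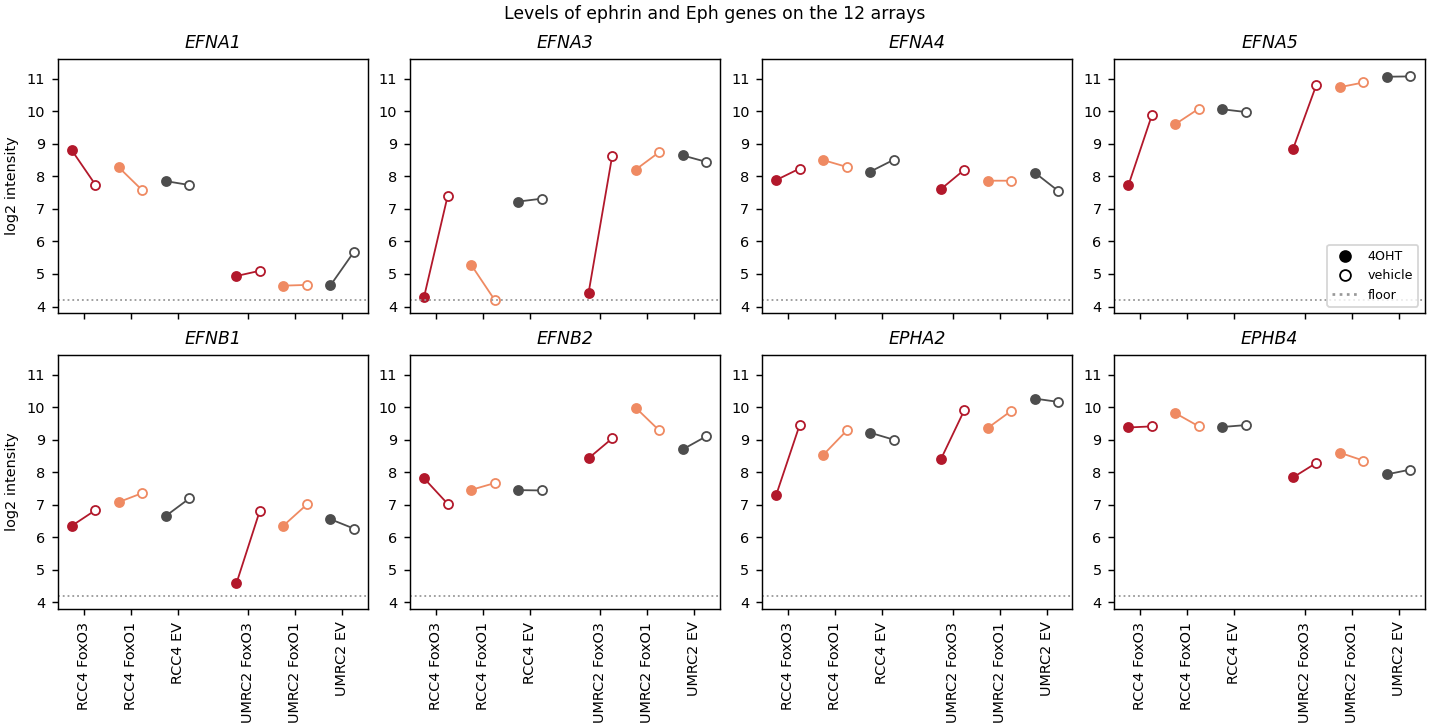
Log2 intensity of the 8 measured genes (vertical axis) on the 12 arrays, grouped by cell line and construct (horizontal axis), with filled points for 4OHT, open points for vehicle and a line joining each pair. The dotted line is the floor at 4.20. EFNA3, EFNA5 and EPHA2 were low in both FoxO3 lines with 4OHT, and EFNA1 was high in RCC4 and low in UMRC2.

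Activation of FoxO3 was accompanied by lower levels of a pair of ephrin-A ligand genes, EFNA3 and EFNA5, and of the receptor gene EPHA2, in both cell lines. No member rose past the threshold. In RCC4 the FoxO3 array with 4OHT was at the lower scan level (spike-in geometric mean 2515), its vehicle array at the higher one (4279). Both RCC4 EV arrays were at the higher level. Scan level therefore cannot be told apart from FoxO3 in any RCC4 difference of FoxO3 from EV, here and below. In UMRC2, where all arrays were at the lower level, EFNA3, EFNA5 and EPHA2 gave -4.39, -1.97 and -1.61 relative to EV. In such bulk RNA, fewer cells expressing a gene and less RNA per cell cannot be told apart. Of 8 members, 3 were lower and 0 higher in the FoxO3 response than in the EV response, where 16.6% of all genes tested passed, 10% lower and 6.6% higher, and the median difference of the members was -0.90 on the log2 scale against -0.07 over all genes tested. Because the members were listed with results of these data known, such shares and medians are a description, here and below. All 3 calls rest on testing bright genes with a variance prior that follows the level: without the filter on dim genes their adjusted p was 0.0764 to 0.109, and with a constant prior 0.0724 to 0.0745.

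EFNA3, a ligand of EphA receptors, showed the largest difference. In RCC4 its log2 level was 4.29 with 4OHT and 7.39 with vehicle in FoxO3 cells, 5.29 and 4.20 in FoxO1 cells, and 7.22 and 7.31 in EV cells. In UMRC2 it was 4.42 and 8.61 in FoxO3 cells, 8.20 and 8.74 in FoxO1 cells, and 8.64 and 8.44 in EV cells. Both FoxO3 arrays with 4OHT lay just above the floor of 4.20, where dim signals cannot be ordered, whereas FoxO3 cells with vehicle lay close to EV cells. The response was lower with FoxO3 than with EV by -3.69 ± 0.60 (SE, n = 2 cell lines; adjusted p = 0.00684 by limma), with -3.0 in RCC4 and -4.39 in UMRC2. The floor limits the size of this difference, and no fold is given for it. RCC4 FoxO1 cells differed from the other RCC4 lines before any 4OHT, their vehicle array being at the floor. In the FoxO1 lines the response minus that of EV was 1.17 in RCC4, where the vehicle array sets it, and -0.74 in UMRC2.

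EFNA5, a further ligand of EphA receptors, stayed well above the floor on all 12 arrays. In RCC4 it was 7.73 with 4OHT and 9.88 with vehicle in FoxO3 cells, 9.60 and 10.08 in FoxO1 cells, and 10.06 and 9.97 in EV cells. In UMRC2 it was 8.83 and 10.82 in FoxO3 cells, 10.74 and 10.88 in FoxO1 cells, and 11.06 and 11.07 in EV cells. Within each cell line the FoxO3 array with 4OHT was the lowest of the 6. The FoxO3 response was -2.11 ± 0.21 relative to EV (4.31-fold lower, adjusted p = 0.00181 by limma), at -2.24 in RCC4 and -1.97 in UMRC2. The 2 other bright probe sets gave smaller differences of the same sign, -1.44 (adjusted p = 0.00843) and -0.82 (adjusted p = 0.0334), while the dim one, at the floor on 5 arrays, gave -1.11 (adjusted p = 0.703).

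EPHA2 codes for a receptor that binds ephrin-A ligands and is abundant in many carcinomas. In RCC4 its log2 level was 7.31 with 4OHT and 9.46 with vehicle in FoxO3 cells, 8.53 and 9.28 in FoxO1 cells, and 9.21 and 9.0 in EV cells. In UMRC2 it was 8.39 and 9.90 in FoxO3 cells, 9.36 and 9.89 in FoxO1 cells, and 10.26 and 10.16 in EV cells. The level with 4OHT was below that with vehicle in all 4 fusion lines and slightly above it in both EV lines. Relative to EV, the FoxO3 response was -1.99 ± 0.27 (3.98-fold lower, adjusted p = 0.00386 by limma), with -2.37 in RCC4 and -1.61 in UMRC2. The FoxO1 response was -0.80 ± 0.27 relative to EV (unadjusted p = 0.0201, adjusted p = 0.384), with -0.96 in RCC4 and -0.63 in UMRC2.

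Among the remaining ephrin-A ligands, EFNA1 followed the cell line. With 4OHT and with vehicle it was 8.80 and 7.74 in RCC4 FoxO3 cells, 8.27 and 7.57 in RCC4 FoxO1 cells, and 7.85 and 7.73 in RCC4 EV cells. All 6 UMRC2 arrays lay between 4.64 and 5.68, near the floor, so that in this line the values of 0.87 for FoxO3 and 1.01 for FoxO1 relative to EV came with EV itself at -1.03. The differences from EV were 0.90 ± 0.60 for FoxO3 (adjusted p = 0.372) and 0.80 ± 0.60 for FoxO1 (adjusted p = 0.721). EFNA4 stayed between 7.55 and 8.51 on the 12 arrays, the narrowest range of the 8 genes, and its FoxO3 difference from EV was -0.58 ± 0.39 (adjusted p = 0.386), at 0.01 in RCC4 and -1.16 in UMRC2.

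The ephrin-B ligands and EPHB4 gave no call in the FoxO3 or FoxO1 responses, and the lines differed in what they showed. EFNB1, whose product signals in both directions with EphB receptors, was 4.58 with 4OHT and 6.82 with vehicle in UMRC2 FoxO3 cells and between 6.27 and 7.36 on the other 10 arrays; relative to EV the FoxO3 response was -2.53 in UMRC2 and 0.06 in RCC4 (together -1.23 ± 0.73, adjusted p = 0.315). EFNB2, the ligand of EPHB4 in the arterial and venous programme, gave 0.77 in RCC4 and -0.21 in UMRC2 for FoxO3, and -0.22 and 1.10 for FoxO1. Its other probe set gave 0.75 and -0.48 for FoxO3 and 2.21 and -0.35 for FoxO1, so the probe sets disagreed in sign for FoxO1 in both lines, and its RCC4 FoxO1 vehicle array was at the floor. EPHB4, a receptor of ephrin-B2, gave -0.14 ± 0.26 for FoxO3 (95% interval -0.75 to 0.47) and 0.43 ± 0.26 for FoxO1 (-0.18 to 1.03). Its other probe set gave -0.70 for FoxO3 (adjusted p = 0.228), with -0.53 in RCC4 and -0.88 in UMRC2. For FoxO1 that probe set gave -0.01 in RCC4 and -0.28 in UMRC2, against 0.46 and 0.39.

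**Figure D2:**
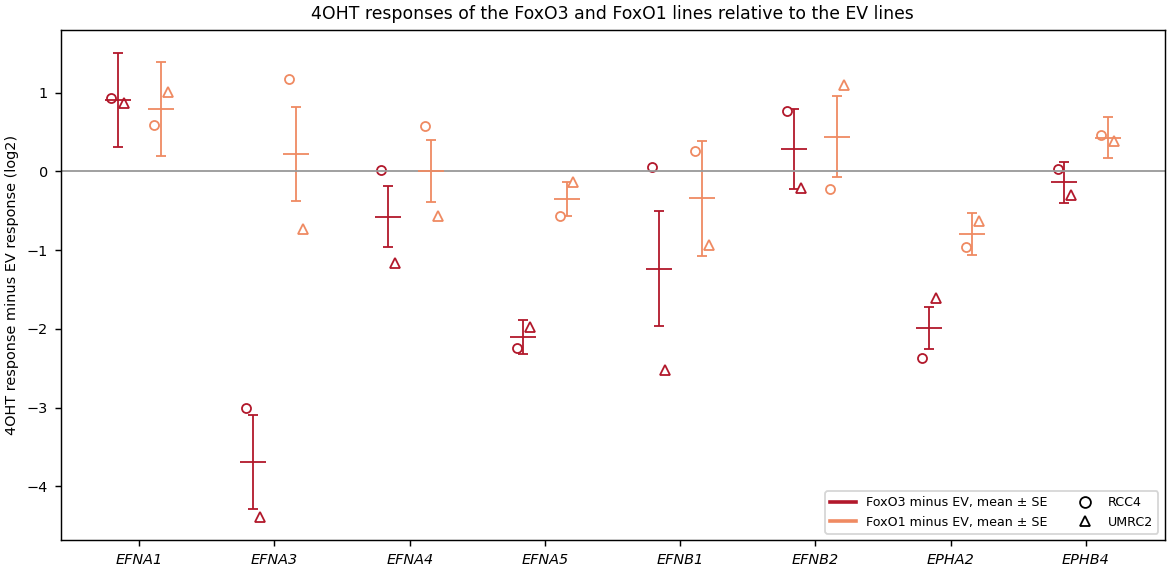
Response to 4OHT in the FoxO3 and FoxO1 lines minus that in the EV line (log2, vertical axis) for the 8 genes. Open circles are RCC4, open triangles UMRC2, and horizontal marks with bars are the means of both lines with the standard error from limma. FoxO3 values of EFNA3, EFNA5 and EPHA2 lie below -1.5 in both lines, while those of EFNB1 lie at 0.06 and -2.53.

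The isoforms were then compared directly. The FoxO3 response was lower than the FoxO1 response for EFNA3 (-3.91 ± 0.60, adjusted p = 0.0201), EFNA5 (-1.76 ± 0.21, adjusted p = 0.0107) and EPHA2 (-1.20 ± 0.27, adjusted p = 0.0476) by limma, and for no other member, where 5.82% of all genes passed, 3.65% lower and 2.17% higher. The differences in RCC4 and UMRC2 were -4.17 and -3.65 for EFNA3, -1.68 and -1.84 for EFNA5, and -1.41 and -0.99 for EPHA2. Without the RCC4 FoxO1 pair, in which EFNA3 started at the floor, the values were -3.31, -1.91 and -1.17 and 0 of the 3 passed, with 37 genes called in all. EPHA2 also missed the threshold without the RCC4 FoxO3 pair (-0.90, adjusted p = 0.186), without the UMRC2 FoxO1 pair (-1.22, adjusted p = 0.166), without the cell line term (adjusted p = 0.0574), without the floor (adjusted p = 0.05), as deposited (adjusted p = 0.562) and with the mean of probe sets (adjusted p = 0.0586). EFNA5 missed it as deposited (-1.95, adjusted p = 0.157) and with the mean of probe sets (-0.90, adjusted p = 0.0968). Of its other bright probe sets, 1 missed it (-0.82, adjusted p = 0.0632) and 1 passed (-1.23, adjusted p = 0.0345). For EPHB4 the difference was -0.57 (95% interval -1.17 to 0.04, adjusted p = 0.263). The comparison shares the FoxO3 arrays with the one against EV, and the unequal level of the fusion transcript and the isoform cannot be told apart. In RCC4, the scan levels that the FoxO3 pair spans cannot be told apart from the isoform either.

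Under FoxO1 alone, 0 of 8 members passed, against 0.084% of all genes, and 1, EPHA2, had an unadjusted p under 0.05, as had 10% of genes. Averaged over both isoforms, EFNA5 (-1.23 ± 0.19, adjusted p = 0.012) and EPHA2 (-1.39 ± 0.23, adjusted p = 0.0161) were lower than with EV, 2 of 8 members where 7.79% of genes passed, 4.7% lower and 3.09% higher, and EFNA3 gave -1.74 (adjusted p = 0.0884). Without either EV pair 0 members passed in that comparison. In EV cells 4OHT changed 0 members and 0% of genes by limma, with 0 members and 338 genes (2.37%) at an unadjusted p under 0.05; the members' mean responses ran from -0.45 for EFNA1 to 0.16 for EPHA2. The fusion lines without 4OHT differed from EV for 0 members and 0% of genes by limma, with 0 members and 1028 genes (7.2%) at an unadjusted p under 0.05. That test averages both isoforms over both cell lines and can miss a shift in a single line. EFNA3, at -0.64 ± 0.71 in it, was 4.20 with vehicle in RCC4 FoxO1 cells against 7.31 in RCC4 EV cells. The FoxO response differed between RCC4 and UMRC2 for 0 members and 0% of genes (0 members and 2.37% of genes at an unadjusted p under 0.05), with the largest values at 1.89 ± 1.20 for EFNB1 and 1.64 ± 2.97 for EFNA3. Here the FoxO1 and FoxO3 pairs of a line stood as replicates, so differences between the isoforms entered the error. The 95% interval for EFNA3 ran from -5.76 to 9.05, too wide to decide whether the lines differed.

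**Figure D3:**
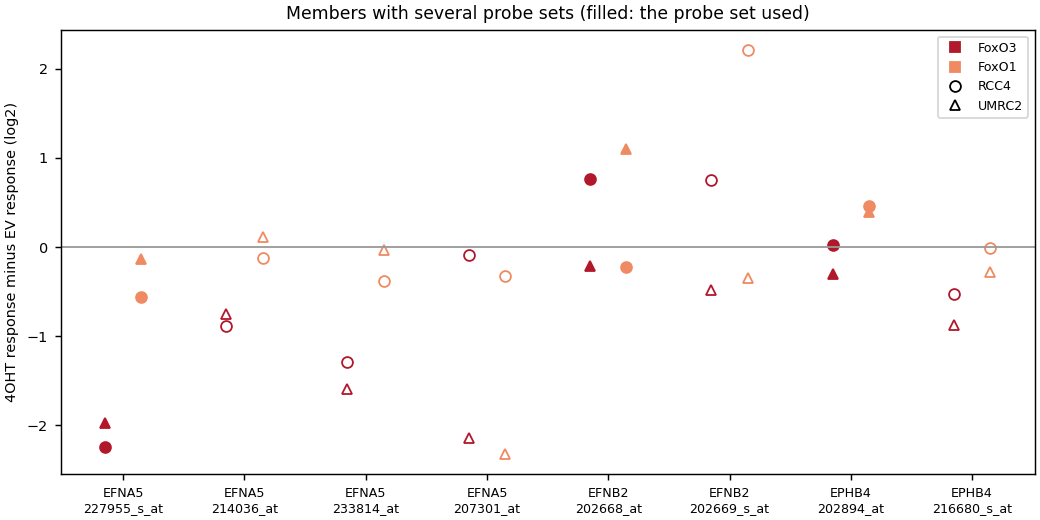
Response minus that of EV (log2, vertical axis) for every probe set of EFNA5, EFNB2 and EPHB4 (horizontal axis), in RCC4 (circles) and UMRC2 (triangles), with the probe set used filled. The bright EFNA5 probe sets lie below 0 for FoxO3 in both lines, from -0.75 to -2.24, and the EFNB2 probe sets fall on opposite sides of 0 for FoxO1.

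Baseline levels differed between the lines for most members, as for most genes tested, and the members called changed with scaling. With vehicle, and with the EV, FoxO1 and FoxO3 lines as replicates, 6 of 8 members differed between RCC4 and UMRC2, 2 higher and 4 lower in RCC4, where 51.3% of all genes passed, 27.3% higher and 24% lower. EFNA1 (7.68 ± 0.10 in RCC4 and 5.15 ± 0.51 in UMRC2, SD, n = 3 each; adjusted p = 0.000234) and EPHB4 (9.42 ± 0.02 and 8.24 ± 0.14; adjusted p = 4.32e-05) were higher in RCC4. EFNA1 reached the array median on the 6 RCC4 arrays alone and so was tested only through the line in which it is high; with all genes tested and no such filter its adjusted p was 0.00248. EFNB2 (7.38 ± 0.32 in RCC4 and 9.14 ± 0.13 in UMRC2; adjusted p = 6.79e-05), EFNA5 (9.98 ± 0.10 and 10.92 ± 0.13; adjusted p = 6.03e-05) and EPHA2 (9.25 ± 0.23 and 9.98 ± 0.15; adjusted p = 0.00245) were lower in RCC4. EFNA3 was 6.30 ± 1.82 in RCC4 and 8.60 ± 0.15 in UMRC2 (-2.30, adjusted p = 0.034). That difference was -1.25 (adjusted p = 0.00473) without the RCC4 FoxO1 array, and it missed the threshold without any 1 of the UMRC2 arrays (adjusted p 0.0711 to 0.0912), without the filter (0.141) and with a constant prior (0.0813). The values for EFNA4 (0.47, adjusted p = 0.0668) and EFNB1 (0.43, adjusted p = 0.268) did not pass. Scan level moves with cell line here: on the intensities as deposited, EPHA2 gave -0.03 (adjusted p = 0.864), EFNA5 -0.21 (adjusted p = 0.101) and EFNA3 -1.71 (adjusted p = 0.0604), which did not pass. EFNA4 (1.11, adjusted p = 0.000852) and EFNB1 (1.06, adjusted p = 0.0135) then did pass, so that the split was 4 higher and 1 lower in RCC4 in place of 2 higher and 4 lower.

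Position was examined because EFNA4, EFNA3 and EFNA1 lie side by side on chromosome 1 (GRCh38.p14, starts at 155063740, 155078837 and 155127876), and RefSeq lists a readthrough transcript of the first pair that the EFNA3 probe set may not tell apart from EFNA3. Of the 3 protein-coding genes on either side, DCST2 and DCST1 were too dim to be tested. The FoxO3 difference from EV was -0.59 for ADAM15, a membrane metalloprotease gene (adjusted p = 0.195), -0.02 for the sugar transporter gene SLC50A1 (adjusted p = 0.986), -0.24 for DPM3 (adjusted p = 0.702) and -0.18 for KRTCAP2 (adjusted p = 0.608). RCC4 and UMRC2 had opposite signs for SLC50A1 (1.03 and -1.07), DPM3 (0.34 and -0.82) and KRTCAP2 (0.17 and -0.53). For ADAM15 they had the same sign (-0.34 and -0.84). EFNA3 was the only gene called among these 7 tested genes of the stretch, where 16.6% of all genes tested passed, 10% lower and 6.6% higher. A single call among 7 genes is near that share.

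**Figure D4:**
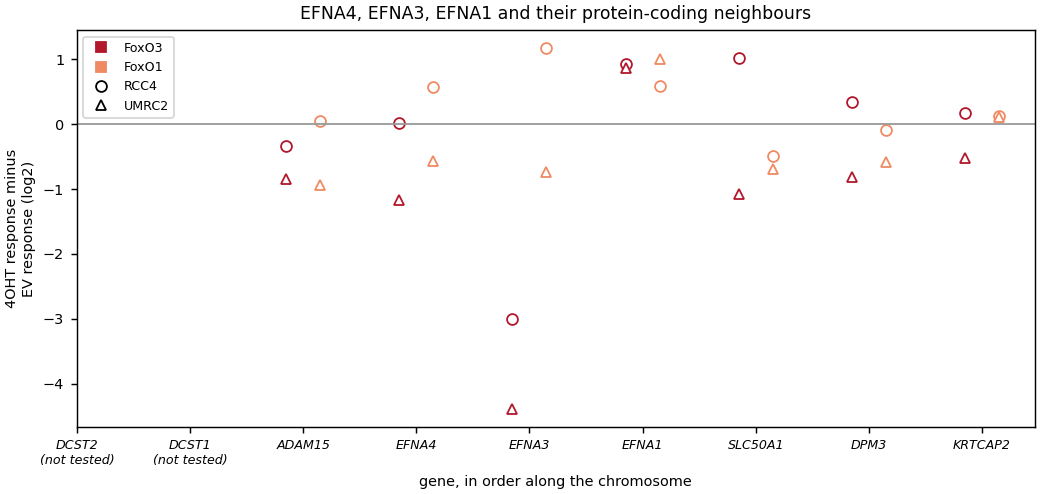
Response minus that of EV (log2, vertical axis) for EFNA4, EFNA3, EFNA1 and the 3 protein-coding genes on either side, in chromosome order (horizontal axis, not to scale), for RCC4 (circles) and UMRC2 (triangles). EFNA3 with FoxO3 stands at -3.0 and -4.39, and the other tested genes lie between -1.16 and 1.03 with either construct.

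The genes whose 6 responses were most like those of EFNA3 were PANX1, H2AZ1 and DDX39A, each with a Pearson correlation of 0.996 over the 6 pairs. Their own FoxO3 differences from EV were smaller, at -0.46 in RCC4 and -0.56 in UMRC2 for the membrane channel gene PANX1, -0.22 and -0.26 for the histone variant gene H2AZ1, and -0.82 and -1.15 for the RNA helicase gene DDX39A. They were picked from all 14285 genes for this likeness, so the correlations are a description.

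Of 13 other ephrin and Eph genes, 11 were tested, and the receptor gene EPHA4 was the 1 that passed for FoxO3 against EV, where 16.6% of all genes passed. Its log2 level was 6.77 with 4OHT and 8.48 with vehicle in RCC4 FoxO3 cells, 7.80 and 8.50 in RCC4 FoxO1 cells, and 8.72 and 8.66 in RCC4 EV cells. In UMRC2 it was 6.77 and 7.97 in FoxO3 cells, 6.63 and 7.51 in FoxO1 cells, and 7.77 and 6.84 in EV cells. EPHA4 was lower with 4OHT than with vehicle in all 4 fusion lines, and relative to EV its FoxO3 response was -1.95 ± 0.39 (adjusted p = 0.0159 by limma). Of its other 4 probe sets, 3 gave larger differences, from -3.53 to -4.23, and the fourth was at the floor on 12 arrays. Without the RCC4 FoxO3 pair 0 of these genes passed in the FoxO3 comparison. With vehicle 3 of the 11 differed between the lines, against 51.3% of all genes. EPHB1 (-1.90, adjusted p = 0.000184) was lower in RCC4 and EPHA4 was higher (1.11, adjusted p = 0.00883). EPHA7, the third, was tested only through UMRC2, since it reached the array median on no RCC4 array, and its vehicle levels of 6.51, 6.41 and 6.13 in RCC4 and 10.72, 10.64 and 11.03 in UMRC2 are given as a description.

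Of 35 proteins that relay or shape Eph and ephrin signals, 32 had tested genes, and 7 were higher and 3 lower in the FoxO3 response than in that of EV, where 16.6% of all genes passed, 6.6% higher and 10% lower. The median was -0.03 against -0.07 over all genes. The largest were NCK1, an adaptor of tyrosine kinases (1.79 ± 0.31, adjusted p = 0.00869), the endocytic scaffold gene ITSN2 (1.60 ± 0.24, adjusted p = 0.00518), FYN, a Src family kinase gene (1.48 ± 0.34, adjusted p = 0.0244), and RGS3, which binds ephrin-B and restrains G protein signals (-1.54 ± 0.34, adjusted p = 0.0218). The others higher were PTK2, ITSN1, SDCBP and ADAM10, the protease that sheds ephrins, between 0.50 and 1.30, and the others lower were SHC1 and PIK3R1. Other probe sets varied. Of those for NCK1, 1 passed (1.60, adjusted p = 0.00668) and 2 did not, and for ITSN2 1 passed (1.16, adjusted p = 0.0194) and 1 gave -0.43 (adjusted p = 0.565). For FYN 1 passed at 4.39 (adjusted p = 0.00764) and 3, from -0.13 to 0.73, did not, and for RGS3 neither of 2 passed (-0.77 and -0.50). Without the RCC4 FoxO3 pair the counts were 6 higher and 1 lower, and under FoxO1 alone 0 of 32 passed.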

How the data were processed

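The authors deposited 1 linear intensity for each probe set and array, which per the submitters' processing notes the authors made with MAS5; version and scaling target are not given in the sources used here. Array medians as deposited ran from 71.1 to 138.7. Members, lists and settings were chosen with earlier results of these data known. Of 54675 probe sets, 62 controls were set aside, and 41091 had 1 gene symbol, 1801 several and 11721 none in the platform annotation. Arrays were quantile-normalised, values under the 20th percentile (intensity 18.4, log2 4.20) were raised to it, and log2 taken. Genes were represented by the probe set with the highest mean and tested when at or above the array median on at least 2 arrays.

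With limma 3.58.1 under R 4.3.3, a model of construct plus line was fitted to the 6 responses, leaving 2 residual degrees of freedom, and a prior variance following the mean level. The difference between lines in the FoxO response was an interaction, and the 6 vehicle arrays were fitted for fusion and for cell line (4 residual degrees of freedom for the last). Tests were two-sided, with Benjamini-Hochberg adjustment over 14285 genes and calls at 0.05. A ± gives the standard error unless SD is written. P-values set construct effects against their spread between lines, not between repeat cultures, and precision is limited by how few arrays there are. For RCC4 against UMRC2, at vehicle or in the FoxO response, the spread is between constructs within a line. The fit was also run on simulated data, with the outcome not reported here. Alternatives covered scaling, floor, filter, prior variance, probe sets, the line term and leaving out each pair. Genes named were all members, list genes past the threshold (up to 4 signalling partners by size, the rest by name or count), the 3 genes most like the member with the largest FoxO3 difference, the neighbours of EFNA3, and ESR1.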

Additional observations from a re-analysis of the deposited data

Results flagged for a closer look

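The response to 4OHT differed between the FoxO3 and FoxO1 lines for 3 members by a direct test in limma. The differences were -3.91 for EFNA3 (adjusted p = 0.0201), -1.76 for EFNA5 (adjusted p = 0.0107) and -1.20 for EPHA2 (adjusted p = 0.0476). EFNA5 and EPHA2 each had the same sign in 2 of 2 cell lines. For EFNA3 the RCC4 FoxO1 vehicle array was at the floor, so a fall could not be seen there. Given the FoxO3 fall, its sign in RCC4 was thus fixed. Without the RCC4 FoxO1 pair the differences were -3.31, -1.91 and -1.17. ESR1, which reads the fusion transcript, was higher in the FoxO3 line of both, and its part in the differences was not tested. No group held enough arrays for a search for outlying samples.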

How the results depend on the processing

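The FoxO3 calls of EFNA3, EFNA5 and EPHA2 against EV held with the values as deposited, median scaling, no floor, the mean of probe sets, no cell line term and each pair left out, with EFNA3 from -4.52 to -2.87 and adjusted p up to 0.049 without the UMRC2 EV pair; EFNA5 was -1.37 with the mean of probe sets. They did not hold without the filter on dim genes (0 members, adjusted p 0.0764 to 0.109) or with a constant prior variance (0 members, 0.0724 to 0.0745), where 0 of all genes passed. Where a left-out pair leaves 1 line for a construct, that line is assumed to vary like the others. For FoxO3 against FoxO1 the members called numbered 1 as deposited and 1 with the mean of probe sets, 0 if dim genes were kept and 0 under a constant prior, and from 0 to 3 with a pair left out. For both isoforms against EV they numbered 0 as deposited, 0 if dim genes were kept, 0 under a constant prior, 1 with the mean of probe sets and from 0 to 2 with a pair left out. The cell line is the block that pairs the constructs; without it (no replicate block) EPHA2 lost its call against FoxO1 (-1.20, adjusted p = 0.0574) and no other member changed call. The cause of these changes was not tested.

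Another choice of probe set moved EFNA5 in FoxO3 against FoxO1, which passed as reported. Its other bright probe sets gave -0.82 (adjusted p = 0.0632 by limma) and -1.23 (adjusted p = 0.0345). On the dim probe set it became 0.21 (adjusted p = 0.961). The other signs that turned were of values that missed the threshold in both settings. As deposited, EFNA4 under FoxO1 became -0.14, EFNB2 under FoxO3 -0.085 and EFNA1 in FoxO3 against FoxO1 -0.12; with median scaling EFNA4 under FoxO1 became -0.018. With its other probe set EPHB4 under FoxO1 became -0.14. With a pair left out, FoxO1 values against EV ran from -0.61 to 1.04 for EFNA3, -0.57 to 0.58 for EFNA4, -1.29 to 0.61 for EFNB1 and -0.46 to 1.34 for EFNB2. FoxO3 values against EV ran from -0.54 to 1.10 for EFNB2, -1.15 to 0.0030 for EFNA4 and -0.28 to 0.0059 for EPHB4. FoxO3 values against FoxO1 ran from -0.12 to 0.33 for EFNA1, -1.06 to 0.74 for EFNB2 and -1.89 to 0.10 for EFNB1. Counts over all genes ranged over all settings from 0 to 2376 for FoxO3 against EV (2376 as reported), 0 to 172 for FoxO1 against EV (12), 0 to 1597 for both (1113), 0 to 1017 for FoxO3 against FoxO1 (832) and 6286 to 10613 for RCC4 against UMRC2 (7331). Intensities near the floor limit EFNA3 with FoxO3 and 4OHT, and EFNA1 in UMRC2.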
